A study of Mus musculus with 49 samples.

Results

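Ccl4, a single gene among the 9020 of the deposited table, was followed across all 49 cells of the series. It was selected on its measured levels in these same cells, with earlier results known, so its levels are a description and no test was made of them. The cells came from wild-type CD1 mice. FlashTag, a fluorescent dye that marks cells dividing at the ventricle at the moment of injection, was given at E13.5, and labelled cells were aspirated through a patch pipette from the primary somatosensory area (S1) at P7 and sequenced one by one. All 49 cells share this birth date, age and area, and no other condition was collected. The paper reports several independent experiments, and that each library mixed cells of different collection days and laminar positions. The labels name no animal or experiment, so cells could not be assigned to either and the 49 cells count as 1 sample. What the labels do name is the library pool, with 12, 9, 9, 9 and 10 cells in pools 1 to 5.

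Ccl4, also called macrophage inflammatory protein 1 beta, is a small secreted chemokine that attracts leukocytes. In brain it is made chiefly by activated microglia and macrophages. C1qa, C1qb and C1qc encode the chains of complement C1q, Csf1r the receptor that keeps microglia alive, and P2ry12 a purinergic receptor of resting microglia. These 5 genes are the microglial genes with which Ccl4 was compared.

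Ccl4 lies on the plus strand of chromosome 11 at chr11:83662584-83664683 (GRCm38, GENCODE M21). Its 3 exons give a transcript of 660 bases, of which 279 are coding and 302 follow the coding sequence, and 0 other annotated genes overlap it. Ccl3, which encodes the related chemokine macrophage inflammatory protein 1 alpha, lies on the minus strand at chr11:83647844-83649355, 13228 bases away, with 3 exons, a transcript of 766 bases and 279 coding bases. A predicted RefSeq model of Ccl4 extends into the span of Ccl3 on the opposite strand, and the annotation used by the authors is not given in the sources used here.

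Values are given as RPM, meaning reads scaled to a common total per cell, with no division by gene length. The shallowest cell had 209850 reads, the median cell 1240101 and the deepest 35342325. The neuronal gene Snap25 reached 10 RPM in 49 of 49 cells, but in 16 of them it had under 5% of the Snap25 reads of the highest cell of the same pool. In 45 cells at least 1 of 6 neuronal genes reached that 5%. Intervals on reads are exact Poisson intervals at 95% and cover counting error only, and for a cell with 0 reads the limit is 3 reads. Those on shares of cells are exact Clopper-Pearson intervals at 95%, which count cells as if they were independent and leave out the differences between pools and animals.

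Reads of Ccl4 were found in most cells, at levels that differed by orders of magnitude. At least 1 read was present in 45 of 49 cells (91.8%, interval 80.4% to 97.7%). In 12 of 49 (24.5%) Ccl4 had at least 5% of the reads of the highest cell of the library pool. That limit is relative to each pool, so it is no common level of detection. A level of 10 RPM was reached in 32 cells (65.3%, 50.4% to 78.3%), of 100 RPM in 14 cells (28.6%, 16.6% to 43.3%) and of 1000 RPM in 4 cells (8.16%, 2.27% to 19.6%). A high level was thus rare, and how common detection was depended on the limit. The median over the 49 cells was 32.4 RPM, the mean 852 RPM and the highest value 21866 RPM, 675 times the median.

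The highest level was in cell IL05 of pool 2, with 21866 RPM (21529 to 22207, from 16051 reads). Cell IL08 of pool 3 followed with 13040 RPM (12885 to 13196, 27081 reads). In each of these cells Ccl4 was the gene with the second highest RPM, behind the mitochondrial ribosomal RNA mt-Rnr2 in the first and behind Tmsb4x, a small actin-binding protein, in the second. Next came IL03 of pool 2 with 1693 RPM (1671 to 1716), IL02 of pool 5 with 1436 RPM (1395 to 1477) and IL07 of pool 3 with 669 RPM (622 to 717). These intervals do not overlap between neighbours, so the order of the first 5 cells exceeded the counting error of reads. The kit has no molecular identifiers, so the error on molecules is not known.

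Further down the order was less sharp. IL09 of pool 3 had 566 RPM and IL05 of pool 5 had 475 RPM, and the intervals of IL07 of pool 3 and IL09 of pool 3, and of IL09 of pool 3 and IL05 of pool 5, overlapped. IL07 of pool 5 had 324 RPM, IL02 of pool 2 had 291 RPM, IL03 of pool 1 had 209 RPM and IL01 of pool 2 had 156 RPM. IL01 of pool 4 had 139 RPM, IL03 of pool 4 had 105 RPM and IL08 of pool 1 had 100 RPM. Of the 48 pairs of neighbours in the order of all cells, 7 had intervals that did not overlap, and all 7 were among the first 14 pairs. From IL01 of pool 2 downward, then, the intervals of each cell and the next overlapped, which by itself does not show that their levels were equal.

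At the low end, 4 cells held 0 reads of Ccl4. With the limit of 3 reads, this allows up to 0.921 and 1.25 RPM in IL06 and IL07 of pool 4, so both lay well under the median cell. In IL02 of pool 1 and IL09 of pool 4, with shallower libraries, it allows up to 11.6 and 9.26 RPM. A further 13 cells had at least 1 read but stayed under 10 RPM.

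The 5 highest cells held 92.7% of the Ccl4 RPM summed over all cells, and the 2 highest held 83.6%. The median gene of the table had 58.4% in its own 5 highest cells, and 9.40% of the genes had a share at least as high as Ccl4. The corresponding share was 79.1% for C1qa, 82.2% for C1qb, 83.6% for C1qc, 95.4% for Csf1r and 94.5% for P2ry12, and 25.1% for Snap25. Ccl4 was therefore concentrated in few cells to a degree similar to the microglial genes. It was far from Snap25, the only neuronal gene set beside it here, which was named after its values were seen. Among the 9020 genes it ranked 13th by its highest RPM in a cell and 8th by its SD of log2(RPM + 1), which was 3.54 against a median of 2.63 over genes.

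The pools differed in their lowest as well as in their highest Ccl4 levels. In pool 1 the 12 cells ranged from 0 to 209 RPM with a median of 1.34 RPM, and 3 reached 10 RPM. In pool 2 the 9 cells ranged from 19.8 to 21866 RPM with a median of 46.9 RPM, and 9 of 9 reached 10 RPM. In pool 3 the 9 cells ranged from 7.86 to 13040 RPM with a median of 32.4 RPM, and 7 reached 10 RPM. These last pools each hold 1 of the 2 highest cells, and neither holds a cell without Ccl4 reads. In pool 4 the 9 cells ranged from 0 to 139 RPM with a median of 0.876 RPM, and 3 reached 10 RPM. In pool 5 the 10 cells ranged from 12.8 to 1436 RPM with a median of 42.7 RPM, and 10 of 10 reached 10 RPM. Differences between pools made up 34.1% of the variance of Ccl4 log2(RPM + 1) among cells. The same share is not given here for other genes, so 34.1% cannot be called particular to Ccl4. Pools also differed in depth, with a median of 9.87e+06 reads per cell in pool 1 and 814366 in pool 5.

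**Figure D1:**
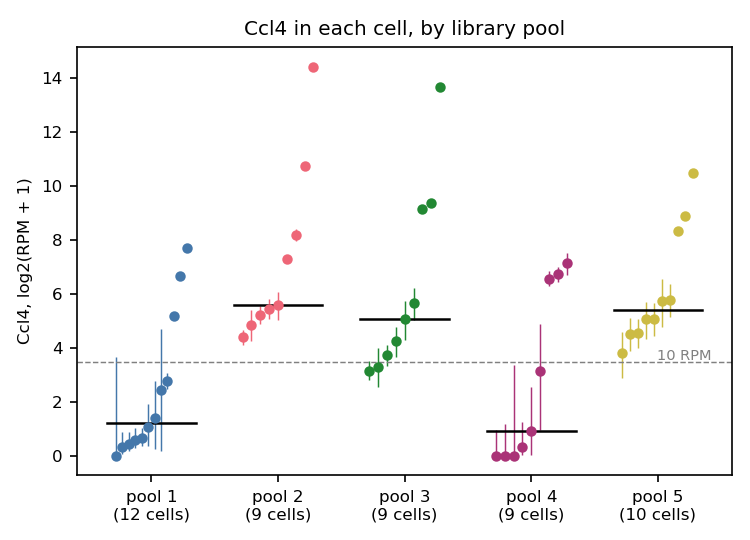
Ccl4 in each of the 49 cells as log2(RPM + 1), by library pool, with 1 point per cell, exact Poisson 95% intervals as error bars (up to 3 reads where a cell had 0) and the pool's median as a horizontal line. All cells of pools 2 and 5 lie above the dashed line at 10 RPM, while most cells of pools 1 and 4 lie below it.

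Because cells of a pool were sequenced together, the reads of each cell were set beside those of the highest cell of its pool. In pool 3, cell IL08 alone held 95.4% of the pool's Ccl4 reads. The other 8 cells of that pool had between 0.0517% and 2.87% of its reads, which came to 7.86 to 669 RPM. In pool 5, 7 of 10 cells had 0.230% to 0.586% of the reads of the highest cell, or 12.8 to 54.1 RPM. In pool 2, 7 of 9 cells had 0.119% to 2.15%, or 19.8 to 291 RPM. Over all pools, 12 of 49 cells had at least 5% of the Ccl4 reads of the highest cell of their pool. This limit differs between pools, since the highest cell had 105 reads in pool 4 and 27081 in pool 3. It left out IL07 and IL09 of pool 3, at 669 and 566 RPM, but kept IL07 of pool 1 at 35.4 RPM. In the 3 pools with a cell at 1000 RPM or more, every cell had at least 7.86 RPM of Ccl4. Reads assigned to the wrong cell of a pool would add to such low levels, and their part in these levels was not tested.

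Ccl4 and the microglial genes were then read in the same cells. At least 2 of C1qa, C1qb, C1qc, Csf1r and P2ry12 reached 10 RPM in 9 of 49 cells (18.4%), and in 9 of these 9 Ccl4 also reached 10 RPM. Of the 9, 2 were in pool 2, 3 in pool 3 and 3 in pool 5, where nearly all cells reached 10 RPM of Ccl4 (9 of 9, 7 of 9 and 10 of 10), so the overlap says little by itself. When Ccl4 and each microglial gene also had to reach 5% of its own reads in the highest cell of the pool, 6 cells had at least 2 microglial genes and 5 of them had Ccl4. These 9 are 28.1% of the 32 cells with Ccl4 at that level, so 23 cells had Ccl4 without a pair of microglial genes. Of these 23, 17 had under 5% of the Ccl4 reads of the highest cell of their pool, as had 3 of the 9. Counted singly at 10 RPM, Ccl4 accompanied C1qa in 7 of 8 cells, C1qb in 10 of 11, C1qc in 9 of 9, Csf1r in 7 of 7 and P2ry12 in 7 of 7, again mostly in pools 2, 3 and 5. Both cells without Ccl4 at that level lay in other pools, IL06 of pool 4 for C1qa and IL02 of pool 1 for C1qb. Over all cells Ccl4 reached this level in 65.3%, and 17 cells had none of the 5 genes at 10 RPM but did have Ccl4. Of these 17, only IL01 and IL03 of pool 4 and IL07 of pool 1 had at least 5% of the Ccl4 reads of the highest cell of their pool.

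The cells with at least 2 microglial genes included the 7 highest for Ccl4, together with IL05 of pool 4 at 93.8 RPM and IL01 of pool 5 at 54.1 RPM. None of the next 7 cells in the order, at 100 to 324 RPM, had 2 of the genes at 10 RPM. Of these 7, IL07 of pool 5 had Csf1r at 15.2 RPM, IL03 of pool 1 had C1qb at 81.1 RPM and IL08 of pool 1 had P2ry12 at 46.8 RPM, while 4 had none. In the 17 cells under 10 RPM of Ccl4, the 5 genes summed to at most 11.6 RPM.

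The highest cell for Ccl4 was not the highest for any of the 5 microglial genes. IL05 of pool 2 had 183 RPM of C1qc and 238 RPM of Csf1r, but 0 RPM of C1qa, 2.72 RPM of C1qb and 4.09 RPM of P2ry12. IL08 of pool 3 had all 5, with 72.2 RPM of C1qa, 886 RPM of C1qb, 843 RPM of C1qc, 420 RPM of Csf1r and 146 RPM of P2ry12. IL03 of pool 2 and IL02 of pool 5 also had 5 of 5 at 10 RPM. The order of cells by Ccl4 was therefore not their order by microglial genes. C1qb, C1qc and P2ry12 were highest in IL05 of pool 5, at 2012, 1093 and 724 RPM, where Ccl4 stood at 475 RPM and Csf1r had 0 RPM. C1qa was highest in IL05 of pool 4, at 127 RPM, where Ccl4 was 93.8 RPM. IL07 of pool 3 had C1qb at 357 RPM and C1qc at 242 RPM, with 0 RPM of C1qa and P2ry12.

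**Figure D2:**
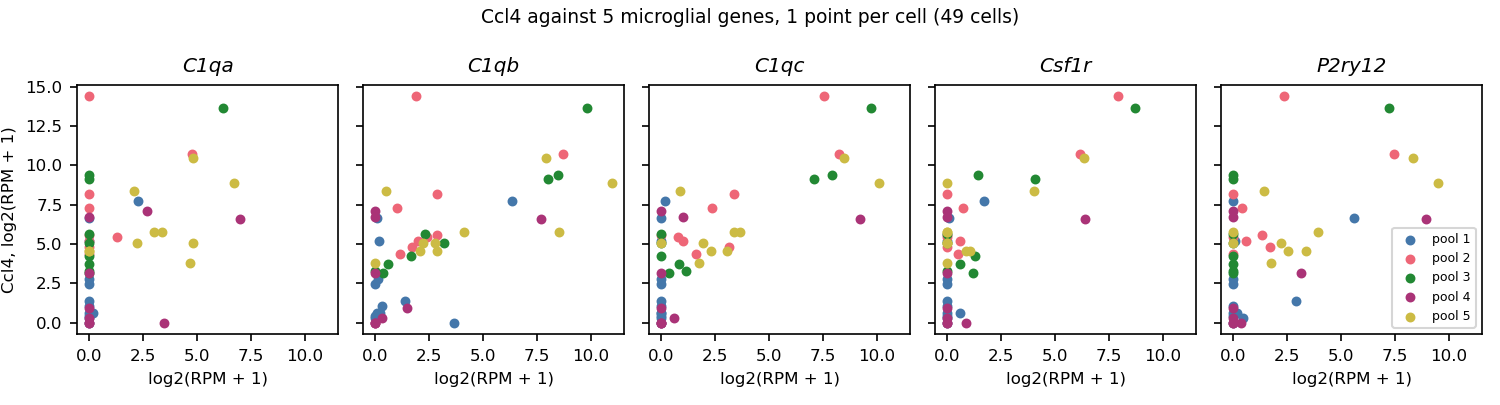
Ccl4 against each of 5 microglial genes in 49 cells, both axes as log2(RPM + 1), with 1 point per cell coloured by library pool. Cells with a high level of a microglial gene also have Ccl4, whereas many cells with Ccl4 have little or none of the gene on the x axis.

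Over the 49 cells, Pearson's r of log2(RPM + 1) with Ccl4 was 0.43 for C1qa, 0.64 for C1qb, 0.75 for C1qc, 0.70 for Csf1r and 0.50 for P2ry12. The points share 5 library pools and differ in depth, and Ccl4 itself had an r of -0.12 with log10 reads per cell. Values centred within pools gave 0.49, 0.58, 0.68, 0.70 and 0.55 in the same order. With pool means removed, r was thus still above 0 for each of the 5 genes. In single pools it ranged from 0.32 for C1qa in pool 2 to 0.96 for C1qb in pool 3. In pool 1, 0 of 12 cells reached 10 RPM of C1qa, C1qc or Csf1r, so r there rests on low levels of these genes. For the 5 genes summed, r was 0.78 over all cells, 0.74 over the 47 cells without the 2 highest for Ccl4, and 0.63, 0.88, 0.97, 0.50 and 0.71 within pools 1 to 5. It was lowest in pool 4, where the highest cell, IL01, had 139 RPM of Ccl4. In that pool IL01 and IL03 (105 RPM) had 0 of the 5 genes at 10 RPM. IL05 had 5 of 5 and less Ccl4, 93.8 RPM.

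An r of at least 0.5 with Ccl4 was found for 62 of the 8716 genes (0.711%) that had 10 reads or more in 5 or more cells. Over these genes the median r was -0.01 and the 99th percentile 0.44. Of the 30 microglial genes listed, 22 are in the table, 21 passed the filter on reads and 15 had an r of at least 0.5, with a median of 0.57. The list includes the 5 genes compared above, and without them the count was 11 of 16 and the median 0.56. For 6 neuronal genes the count was 0 of 6 and the median -0.19, for 6 genes of excitatory neurons 0 of 6 and -0.11, and for 8 of inhibitory neurons 0 of 8 and 0.10. Astrocyte genes gave 0 of 6, red blood cell genes 0 of 4, and genes of the oligodendrocyte lineage 1 of 5 (Olig1, a transcription factor, with 0.58). Of the lists for cell types, then, that for microglia lay furthest above the median of all genes.

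The 10 genes whose pattern over the 49 cells was most like that of Ccl4, by r, were Il1a (0.77), Laptm5 (0.76), C1qc (0.75), Fcer1g (0.72), Cxcl2 (0.72), Plek (0.71), Cd14 (0.71), Ccl3 (0.70), Csf1r (0.70) and Ctss (0.69). Il1a encodes the cytokine interleukin 1 alpha, Cxcl2 a chemokine that attracts neutrophils, Cd14 a co-receptor for bacterial lipopolysaccharide, Fcer1g a signalling chain of Fc receptors and Ctss the protease cathepsin S. Il1a reached 10 RPM in 14 cells, and within pools its r was 0.73.

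**Figure D3:**
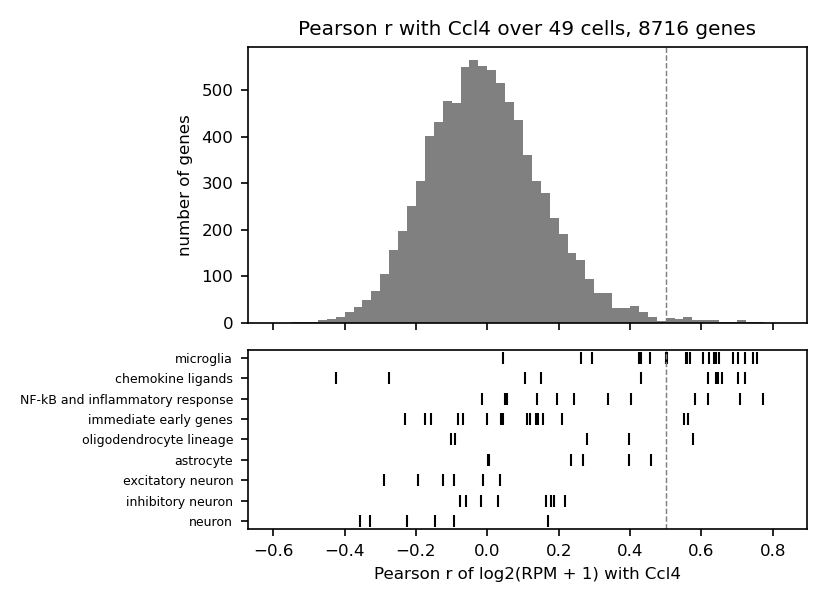
Histogram of Pearson's r of log2(RPM + 1) with Ccl4 over 49 cells for 8716 genes (number of genes per bin), with ticks below for the members of 9 gene lists. Most genes lie near 0, while most ticks of the microglia list and 7 of the chemokine ligands lie right of the dashed line at 0.5.

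Other chemokine ligands differed widely in their r with Ccl4. Of 32 listed, 13 including Ccl4 are in the table, and 7 of the 12 others had an r of at least 0.5. These were Cxcl2 (0.72), Ccl3 (0.70), Ccl2 (0.66), Ccl12 (0.65), Ccl9 (0.64), Ccl5 (0.64) and Ccl7 (0.62). Below them came Cxcl14 (0.43), Ccl17 (0.15) and Ccl25 (0.11). Ccl27a, with an r of -0.42, and Cx3cl1, a chemokine made by neurons, with -0.27, had the lowest values. Cx3cl1 had at least 1 read in 46 cells. Of 19 chemokine receptors listed, only Ackr1 and Ackr3, which bind chemokines without signalling through G proteins, are in the table. No r of at least 0.5 was found for a receptor, with 0 of 1 passing the filter on reads.

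Chemokines did not accompany Ccl4 in the same set in each cell. IL05 of pool 2 had 5068 RPM of Ccl3, 3096 RPM of Ccl5, 2338 RPM of Ccl12 and 1571 RPM of Ccl9, but 13.6 RPM of Cxcl2. IL08 of pool 3 had 2269 RPM of Ccl3, 1738 RPM of Ccl5 and 3806 RPM of Cxcl2, but less Ccl9 than IL05 of pool 2. IL02 of pool 5, with 1436 RPM of Ccl4, had 0.902 RPM of Ccl3 and 0 RPM of Ccl5 and Ccl9, beside 348 RPM of Ccl2. The neighbouring gene Ccl3 was thus nearly absent from a cell with one of the 4 highest levels of Ccl4. In IL02 of pool 2 the relation was the other way, with 881 RPM of Ccl3 and 291 RPM of Ccl4. Its Ccl4 reads were 0.875% of those of the pool's highest cell. No microglial gene of the 5 reached 10 RPM there. The longer microglia list had 3 genes at that level in this cell, with 427 RPM of Laptm5, 231 RPM of Lgmn and 198 RPM of Aif1. IL01 and IL03 of pool 4 had 0 RPM of Ccl3 at 139 and 105 RPM of Ccl4. In IL07 of pool 3, Ccl3 stood at 446 RPM and Ccl12 at 608 RPM, and in IL05 of pool 5 at 452 RPM and 2.60 RPM.

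Inflammatory genes were high in some of the same cells. Tnf, the cytokine tumour necrosis factor, had an r of 0.62 with Ccl4 and reached 752 RPM in IL08 of pool 3 and 283 RPM in IL05 of pool 2, but 0 RPM in IL02 of pool 5. Il1a had 1791 RPM in IL05 of pool 2, 2909 RPM in IL08 of pool 3 and 114 RPM in IL02 of pool 5. Its highest level, 5155 RPM, was in IL05 of pool 5, where Ccl4 was 475 RPM. Of the 12 genes of the list for NF-kB and inflammation in the table, 4 had an r of at least 0.5, with a median of 0.29. Of the 16 immediate early genes, which neurons and other cells switch on within minutes of a stimulus, 2 did (Atf3, 0.56, and Zfp36, 0.55), with a median of 0.08. Ccl4 therefore varied with part of the inflammatory list and with few of the immediate early genes.

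**Figure D4:**
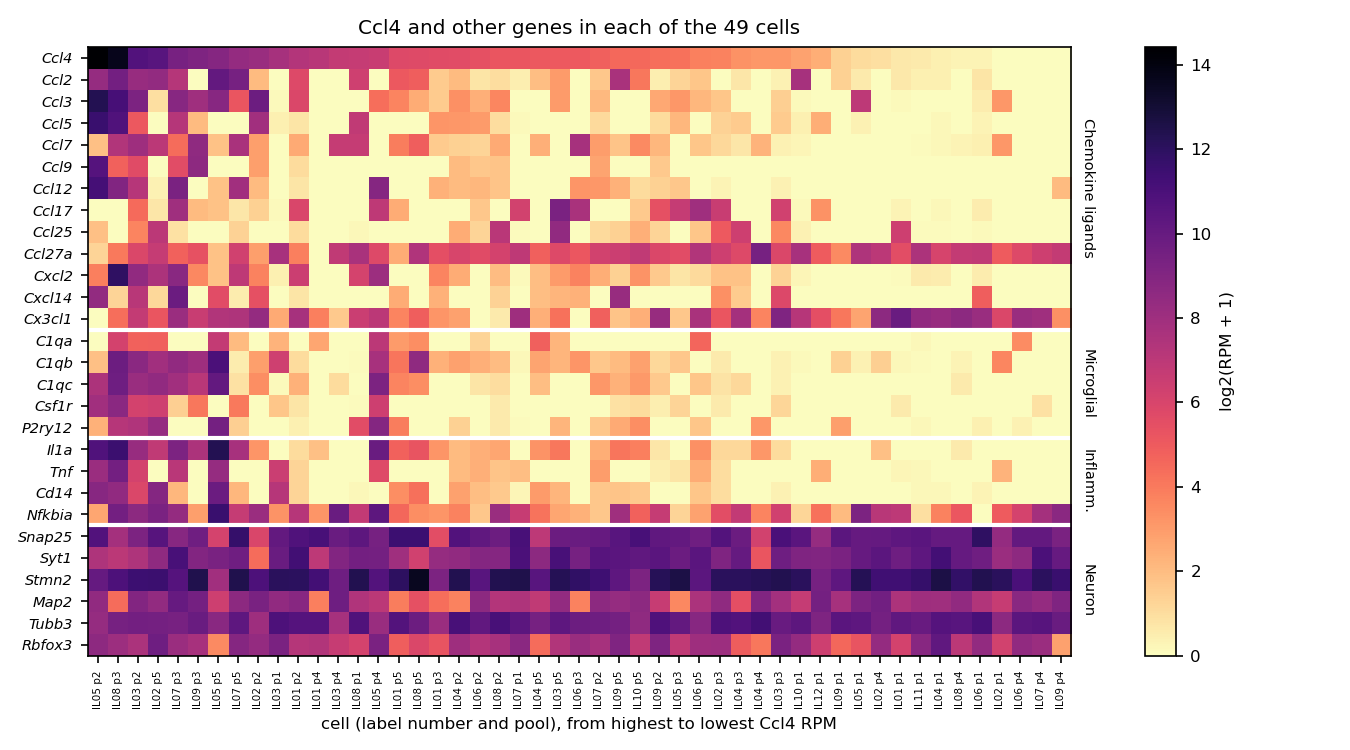
Levels of Ccl4, 12 other chemokine ligands, 5 microglial genes, 4 inflammatory genes and 6 neuronal genes as log2(RPM + 1) in the 49 cells, ordered from the highest to the lowest Ccl4 RPM. Dark squares of chemokines, microglial and inflammatory genes gather at the left, whereas the neuronal genes are present along the whole order.

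Reads of neuronal genes stood beside Ccl4 in every high cell. All 6 neuronal genes reached 10 RPM in each of the 5 highest cells. Over all cells, Rbfox3 did so in 48 of 49 and the others in 49 of 49. With 5% of the reads of the pool's highest cell required, the lowest number of the 6 genes in any of these 5 cells was 2. The 6 genes summed to 3996 RPM in IL05 of pool 2, 3280 RPM in IL08 of pool 3, 5058 RPM in IL03 of pool 2, 6711 RPM in IL02 of pool 5 and 6109 RPM in IL07 of pool 3. The lowest, median and highest such sums among the 49 cells were 1293, 6826 and 15983 RPM. The sum of the 22 microglial genes in the table was 3023, 10724, 3365, 3664 and 1248 RPM in the same cells, against 2.49, 149.6 and 17741 RPM as the lowest, median and highest of the 49 cells. Libraries with the most Ccl4 thus held reads of both neuronal and microglial genes, and a single library cannot tell apart the RNA of the patched cell from that of a neighbour taken up with it.

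Other cell types were read by their marker lists in the 5 highest cells. These were IL05 of pool 2, IL08 of pool 3, IL03 of pool 2, IL02 of pool 5 and IL07 of pool 3. In this order, astrocyte genes summed to 3854, 181, 1033, 49.9 and 254 RPM. Oligodendrocyte-lineage genes summed to 169, 74.2, 1166, 2.41 and 6.03 RPM, and inhibitory neuron genes to 233, 406, 1043, 235 and 817 RPM. The median cell had 156, 67.0 and 135.6 RPM of these lists. For excitatory neurons the sums were 28.6, 173, 320, 602 and 9.48 RPM, where the median cell had 536 RPM. The astrocyte sum of IL05 of pool 2 was the highest of all cells, and mitochondrial genes made up 9.81% of its reads. Of 12 genes of border macrophages 0 are in the table, so this class could not be counted. Of 12 genes of other blood leukocytes 1 is, too few to stand for the class. It had at most 0.301 RPM in the 5 highest cells and up to 226 RPM over all cells. The part of RNA from these cell types, or of mitochondrial share (r of 0.45 with Ccl4), in the Ccl4 level was not tested.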

How the data were processed

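The authors prepared cDNA of each cell with the SMART-Seq v4 3′ DE kit, which has no molecular identifiers, made Nextera XT libraries in 5 pools and sequenced 100 bases single-end. Per the submitters' processing notes and methods, reads were aligned to mm10 (GRCm38) with STAR and counted with HTSeq. The authors deposited RPM, and versions and annotation are not given in the sources used here. Each listed gene has at least 100 RPM in at least 2 cells.

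Reads were recovered from the RPM step worth 1 read in a cell, and of 314114 non-zero values 100% were whole to within 0.01 read. No count test was run, since the 49 cells are 1 condition without named animals. Levels were compared as log2(RPM + 1), with Pearson's r and no p. Genes for r had at least 10 reads in at least 5 cells. Named were Ccl4, the 5 microglial genes, chemokine ligands and receptors, the 10 genes nearest by r, and list genes at 10 RPM in the 5 highest cells. The genes Snap25, mt-Rnr2, Tmsb4x and Olig1 were named after their values were seen. The gene and the lists were chosen with earlier results of these data known. Scripts were tested on simulated data. Coordinates are from GENCODE M21. Sequences, and 1 gene of the receptor list, are not reported here. Alternatives were other limits, pseudocounts, rank correlation, thinning and leaving out pools. Scripts ran in Python 3.11.15 with scipy 1.17.1, pandas 2.3.3, numpy 2.4.6 and matplotlib 3.10.9.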

Additional observations from a re-analysis of the deposited data

How the results depend on the processing

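The share of cells with Ccl4 (91.8% from 1 read) was 73.5% from 10 reads, 79.6% from 1 RPM and 65.3% from 10 RPM. It was 81.8% when 44 cells were thinned to 358412 reads, leaving out 5 shallower cells, and 89.7% to 97.5% without each pool. With at least 5% of the reads of the pool's highest cell required, an alternative chosen after seeing the data, it was 24.5%. That limit differs between pools. The share of Ccl4 RPM in the 5 highest cells (92.7%) was 90.6% from summed reads and 93.5%, 92.1%, 94.3%, 93.5% and 96.3% without pools 1 to 5. The 9 cells with both Ccl4 and 2 of 5 microglial genes at 10 RPM became 33 from 1 read, 15 with 1 of 5 genes and 5 when Ccl4 and each microglial gene also had to reach 5% of its own reads in the pool's highest cell, likewise chosen after seeing the data. They were 7 at 100 RPM or with 3 of 5 genes, 10 without hemoglobin and mitochondrial genes, and 6 to 9 without each pool, with 6 both without pool 3 and without pool 5. The median r with the 5 genes (0.64) was 0.48 as Spearman's rho. Csf1r fell to 0.48 and P2ry12 to 0.37 by rho, and Csf1r to 0.55 without the 2 highest cells. None of the correlations with these 5 genes changed sign under these alternatives. Of the 10 nearest genes, 7 were also among the nearest by rho. Depth limits the low levels, since 1 read is worth 4.77 RPM in the shallowest cell. No paired analysis was possible because the cells form a single group.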
